A study of Canis lupus familiaris with 2 samples.

Results

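The genes described here encode subunits of the respiratory chain and of ATP synthase. They were chosen by name, as symbols that start with NDUFA, NDUFB, NDUFC, NDUFS or NDUFV, *SDHA* to *SDHD*, UQCR, COX4 to COX8 or ATP5, together with the 13 protein genes of mitochondrial DNA. Of 15236 gene names that occurred in the counts of both dogs, 66 were members, 53 nuclear and 13 mitochondrial. Single cells of neuroretina were profiled from 2 normal or wild-type male dogs of 40 weeks, N350 and N354, with a droplet kit that counts unique molecular identifiers (UMIs) at the 3′ ends of polyadenylated transcripts. Each dog gave 1 library from retinal punches treated with trypsin and an enzymatic neural dissociation kit, and no dog was treated or mutant.

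In the respiratory chain, complexes I and II pass electrons from NADH and succinate to coenzyme Q, complex III passes them to cytochrome c, and complex IV passes them to oxygen. Complexes I, III and IV pump protons, and complex V, the ATP synthase, uses the gradient to make ATP. Complex II is encoded by nuclear genes alone, whereas the other complexes join subunits made in the mitochondrion with subunits imported from the cytosol. Photoreceptors pack their mitochondria into the inner segment.

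By complex, 27 nuclear members belonged to complex I, 3 to complex II, 5 to complex III, 10 to complex IV and 8 to complex V. The mitochondrial members comprised 7 subunits of complex I, cytochrome b (*CYTB*) of complex III, *COX1* to *COX3* of complex IV and *ATP6* and *ATP8* of complex V. *NDUFA4L2* was placed in complex IV, because its paralogue *NDUFA4* is a subunit of that complex despite its name. The rule matched 74 nuclear names in N350 and 56 in N354, since the dogs were counted on different gene annotations. The 21 names found in N350 alone included *NDUFA4* with 22435 UMIs, the ATP synthase c-ring gene *ATP5MC3* with 17722 and *UQCRH* with 13281, and the 3 found in N354 alone were *ATP5PB*, *ATP5PF* and *UQCRB*. The nuclear sums below are therefore sums over the shared subunits and not over whole complexes. The muscle isoform *COX6A2* had no UMI in any class of either dog, *COX7B2* had 1 UMI in each dog, and the other 64 members were tested.

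The libraries held 23980337 UMIs in N350 and 9685044 in N354, with a median of 1298 and 1204 UMIs per cell, and 6 cell barcodes occurred in both. Cells were assigned to classes by lists of retinal markers that held no member, and 6416 of 8539 cells of N350 and 3076 of 4212 cells of N354 received a class. Rods, cones, Müller glia, bipolar cells, horizontal cells and a joint class of amacrine and ganglion cells had at least 20 cells in each dog, and astrocytes and vascular cells reached that number in N350 alone. Cells without a class made up 24.9% and 27.0%. Their median score was highest on the rod list, at 1.21 and 1.60, below the limit of 2. The gate named 4447 and 2105 cells as rods, against 5691 and 2949 with classes from clusters. The rods that serve as reference are thus cells with a high share of rod markers. Some assignments lay close to the limit of the gate, among them 18.6% and 46.9% of the rods and 38.2% and 37.4% of the Müller glia. Of the amacrine and ganglion cells, 19.4% lay close to it in N350 and none in N354. The horizontal and the amacrine and ganglion classes of N354 were small, with 27 and 35 cells.

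Nuclear and mitochondrial transcripts of the chain did not follow the same order across the retina. Nuclear levels were high in horizontal cells, cones, and amacrine and ganglion cells and low in Müller glia, whereas bipolar cells had the largest mitochondrial share of the 6 classes in both dogs. Müller glia, with the lowest nuclear level, had a mitochondrial share above that of rods in both dogs. Their low nuclear level holds as a share of UMIs. Relative to the bulk of genes, their nuclear members moved in both directions. In the ratio of mitochondrial to nuclear member UMIs, which does not depend on library size, bipolar cells and Müller glia were the 2 highest classes in each dog. No mitochondrial limit was set on cells here, whereas the paper excluded cells above 5% mitochondrial content to remove damaged or dying ones. The part of cell quality in the mitochondrial shares was not tested.

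The nuclear level is given as UMIs of the 53 nuclear members per 10000 UMIs outside the 13 mitochondrial genes. In rods it was 164 in N350 and 210 in N354, a mean of 187 ± 31.8 (SD, n = 2). Cones reached 241 and 294 (267 ± 37.7) and horizontal cells 269 and 352 (310 ± 59.1). These levels stood above those of rods within each dog. Amacrine and ganglion cells had 245 and 284 (264 ± 27.0) and bipolar cells 205 and 235 (220.0 ± 21.1). Müller glia had 103 and 127 (115 ± 16.5), below every other class with cells in both dogs. The astrocytes of N350 had 144 and its vascular cells 102.

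Relative to rods of the same dog, the nuclear level of cones was 1.46 times as high in N350 (exact conditional 95% interval 1.44 to 1.48) and 1.40 times in N354 (1.38 to 1.43). In horizontal cells the ratio was 1.63 (1.61 to 1.65) and 1.68 (1.64 to 1.73). Both classes were thus higher than rods in either dog. Müller glia had 0.629 times the level of rods in N350 (0.622 to 0.635) and 0.605 times in N354 (0.597 to 0.614). The ratio of bipolar cells was 1.25 (1.23 to 1.27) and 1.12 (1.10 to 1.14), and that of amacrine and ganglion cells 1.49 (1.47 to 1.51) and 1.35 (1.32 to 1.39). These intervals cover counting error within a dog, and with 2 dogs no permutation test of such a ratio can reach 0.05.

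The share of all UMIs on the 13 mitochondrial genes was 13.96% and 17.5% in bipolar cells of N350 and N354, against 5.77% and 7.74% in rods. Bipolar cells thus had 2.42 times (2.41 to 2.44) and 2.25 times (2.24 to 2.27) the share of rods. Cones had 7.83% and 11.97%, horizontal cells 8.83% and 12.9%, and amacrine and ganglion cells 7.87% and 14.1%. All of these shares lay above that of rods in the same dog, although the value of 14.1% rested largely on 1 cell. Müller glia had 6.35% and 10.1%, or 1.10 times (1.10 to 1.11) and 1.31 times (1.30 to 1.32) the share of rods. In N350 alone, astrocytes had 3.62% and vascular cells 3.95%, below the rods of that dog.

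For each UMI of a nuclear member, bipolar cells held 7.91 mitochondrial UMIs in N350 and 9.00 in N354, and Müller glia held 6.56 and 8.91. Rods held 3.72 and 4.01, cones 3.53 and 4.62, and horizontal cells 3.60 and 4.20. The ratio of bipolar cells was therefore 2.13 and 2.25 times that of rods, and the ratio of Müller glia 1.76 and 2.22 times. For cones these values were 0.949 and 1.15 and for horizontal cells 0.968 and 1.05, with the dogs on opposite sides of 1. Amacrine and ganglion cells differed between the dogs, with 3.48 in N350 and 5.78 in N354. In N354 the value rested on 1 of the 35 cells, which held 19625 mitochondrial UMIs among 21299, or 48.3% of those of its class. Without cells above 50% mitochondrial UMIs, a limit chosen after the data were seen, this class had a share of 7.86% in N354, against 7.74% in rods, and a ratio of 3.01. The median over its cells was 8.53% in N354 and 6.68% in N350.

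**Figure D1:**
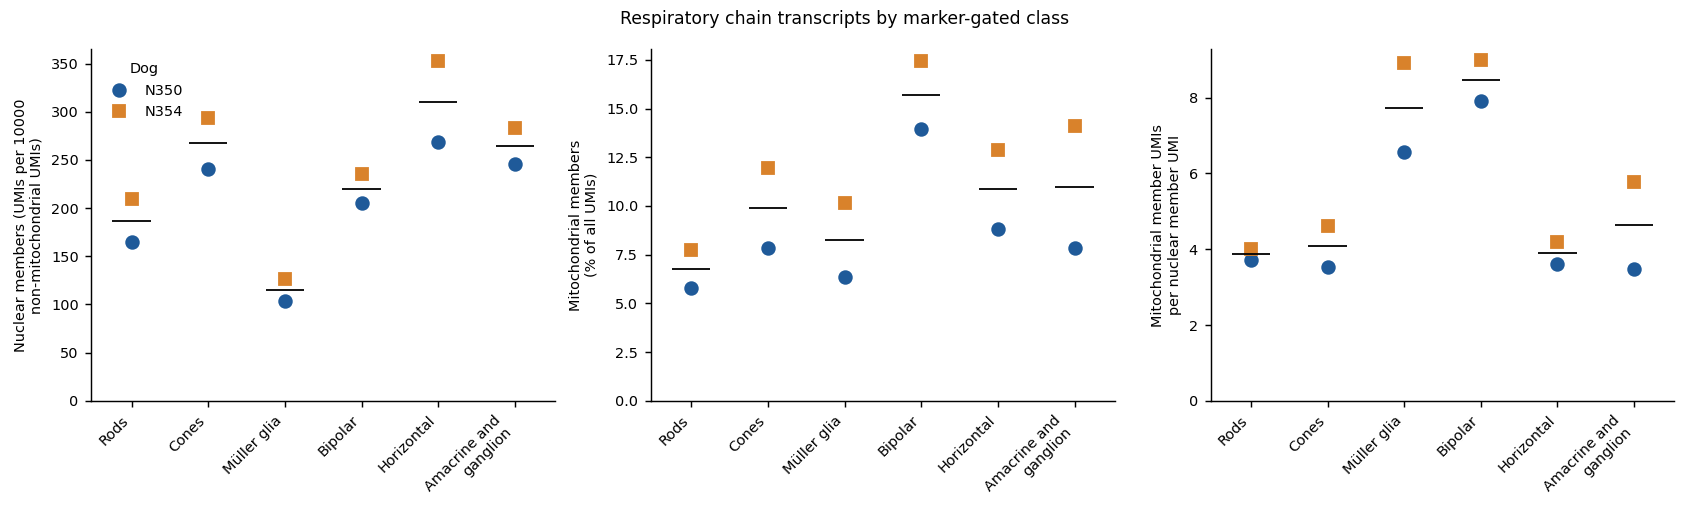
Level of the nuclear members (UMIs per 10000 UMIs outside the mitochondrial genes), share of all UMIs on the 13 mitochondrial members (%) and mitochondrial UMIs per nuclear member UMI, by class. Circles are N350, squares N354 and lines the mean of both dogs; Müller glia are lowest in the first panel, and Müller glia and bipolar cells are highest in the third, at 6.56 to 9.00, while the mitochondrial values of amacrine and ganglion cells in N354 rest largely on 1 cell.

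Every class had a higher nuclear level and a higher mitochondrial share in N354 than in N350. In amacrine and ganglion cells the share was 7.87% in N350 and 14.1% in N354, or 7.86% in N354 without the cell described above. The median cell of that class had 6.68% in N350 and 8.53% in N354. Part of the scale differed between the dogs, since 83.1% of the UMIs of rods in N350 and 90.1% in N354 fell on names found in both. Over shared names alone the nuclear level of rods was 200.3 and 235 per 10000, and the mitochondrial share 6.93% and 8.59%. The dogs remained apart on that scale, and dog, library and annotation cannot be told apart. Comparisons between classes were therefore made within a dog.

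The differences between classes were present in the distribution over cells as well. The median cell had a mitochondrial share of 13.3% and 17.5% among bipolar cells of N350 and N354, and of 4.78% and 7.07% among rods. In N350 the bipolar cells between the 25th and the 75th percentile spanned 10.2% to 23.3%, and in N354 13.6% to 20.2%. The same range of rods, 2.44% to 7.35% and 3.26% to 10.3%, ended below the start of that of bipolar cells in both dogs. A share above 10% was found in 75.4% and 91.8% of the bipolar cells, in 25.4% and 74.5% of the cones, in 13.8% and 50.8% of the Müller glia and in 11.6% and 26.9% of the rods. A share above 5% was found in 98.3% and 99.6% of the bipolar cells and in 84.7% and 99.5% of the cones. Limits of these sizes would thus leave the classes in different proportions. The limit that the paper set on mitochondrial content was 5%.

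**Figure D2:**
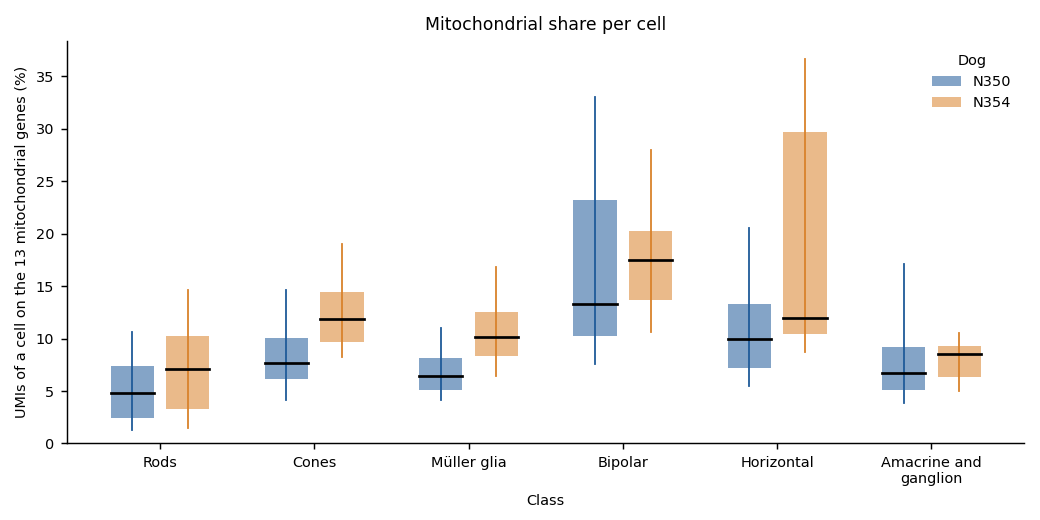
Share of the UMIs of a cell on the 13 mitochondrial genes (%), by class and dog. Black lines are medians, bars span the 25th to the 75th percentile and thin lines the 10th to the 90th; the medians of bipolar cells, 13.3% and 17.5%, are the highest in each dog.

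Within a class, cells were divided into 3 equal groups by their mitochondrial share. Among rods the nuclear level was 145, 167 and 179 per 10000 from the low to the high group in N350 and 184, 211 and 231 in N354. Rods with more mitochondrial RNA thus also had a higher nuclear level in both dogs. Amacrine and ganglion cells showed the same order, with 226, 249 and 267 in N350 and 268, 281 and 309 in N354. Bipolar cells did not show this order, with 204, 216 and 184 in N350 and 243, 234 and 225 in N354. Cones, Müller glia and horizontal cells did not rise through all 3 groups in both dogs. In bipolar cells the median depth of the high group was 1276 UMIs in N350 and 1917.5 in N354, against 3537 and 2461 in the low group. From the low to the high group of rods it was 982, 1219.5 and 1257 in N350 and 905, 1555 and 1019 in N354. The part of depth in these orders was not tested.

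Complexes did not differ from rods by 1 common factor. In cones the summed nuclear level of complex V was 1.59 and 1.49 times that of rods and that of complex IV 1.56 and 1.66 times. Complex I stood at 1.39 and 1.30 times and complex II, which links the citric acid cycle to the chain, at 1.15 (1.04 to 1.27) and 1.01 (0.857 to 1.19) times. The interval for complex II in N354 thus held 1. In horizontal cells complex IV reached 1.84 and 2.08 times the level of rods, complex II 1.80 and 1.86 times and complex V 1.44 and 1.38 times. In Müller glia all 5 nuclear sums were below those of rods, from 0.501 and 0.504 for complex III to 0.675 for complex I in N350 and 0.694 for complex II in N354. Bipolar cells stayed between 1.20 and 1.33 in N350 and between 0.907 and 1.24 in N354, where complex III was below rods.

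The mitochondrial members showed another order of complexes. In Müller glia the share of complex IV genes was 1.02 and 1.17 times that of rods, and that of complex I genes 1.13 and 1.62 times. In amacrine and ganglion cells complex I reached 1.81 and 2.55 times and complex V 1.14 and 1.59 times. Without the cell of N354 that held much of the mitochondrial RNA of this class, the values of N354 were 1.57 for complex I and 0.958 for complex V. Complex V was the most raised sum in bipolar cells, at 2.76 and 2.58 times the share of rods.

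**Figure D3:**
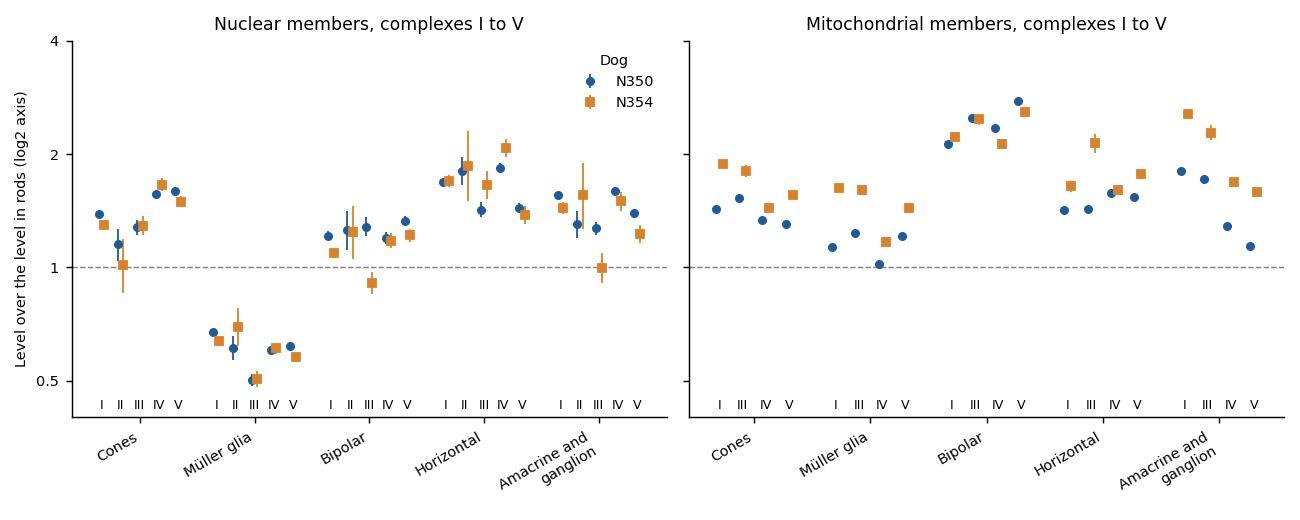
Summed level of the members of each complex (I to V) relative to rods of the same dog, on a log2 axis, for nuclear members (left) and mitochondrial members (right). Circles are N350, squares N354 and bars exact conditional 95% intervals of counting error; nuclear sums of Müller glia lie below 1 while their mitochondrial sums lie above it.

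Single members were tested on UMIs summed per dog and class, with edgeR's quasi-likelihood test, TMM normalization, the dog as a block and adjustment over 11325 genes. All 5 comparisons share the rods. With the block, p-values rest on how far differences between classes varied between the 2 dogs, pooled over all classes in the fit. The overall difference between the dogs is not part of that spread. A TMM log2 fold change is relative to the bulk of genes and not to a share of UMIs. Without the dog as a block, 0, 3, 3, 4 and 1 members passed the threshold of 0.05 in cones, Müller glia, bipolar, horizontal, and amacrine and ganglion cells, against 29, 34, 22, 36 and 23 with it. Over all genes 2.73%, 21.7%, 9.77%, 15.2% and 19.5% passed without the block.

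In cones, 20 of 51 nuclear members were higher than in rods and 2 were lower, and 7 of 13 mitochondrial members were higher and none lower. Over all genes 23.9% passed, 13.8% higher and 10.1% lower, a smaller share than among the members. The median log2 fold change was 0.50 over the nuclear and 0.62 over the mitochondrial members, against -0.05 over all genes tested. The nuclear members that were higher included 10 of complex I, 4 of complex IV and 5 of complex V. With DESeq2 size factors in the same test 46 members passed, 44 of them higher, while 24.1% of all genes passed, 16.1% higher and 8.08% lower, and the median over all genes moved to 0.05. With library sizes that left out the mitochondrial genes, 12 nuclear members were higher and 2 lower. Over all genes 23.8% then passed, 12.9% higher and 10.9% lower. In cells with at most 10% mitochondrial UMIs, 9 nuclear members were higher and 2 lower. There, 21.8% of all genes passed, 12.4% higher and 9.43% lower. In both of these settings the share of nuclear members that passed in either direction was close to that over all genes. Without cells above 50% mitochondrial UMIs, 2 of them in N354, 5 mitochondrial members passed.

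Among the isoforms of complex IV, *COX7A1*, the heart and muscle form of its subunit, rose from 0.752 and 1.62 UMIs per 10000 in rods to 2.61 and 5.65 in cones (log2 fold change 1.81 ± 0.20 (SE), adjusted p = 6.32e-07). *COX4I1*, the widespread form of another subunit, rose from 8.05 and 12.3 to 16.9 and 22.8 (0.99 ± 0.20, adjusted p = 0.00102). Both genes were higher in cones of either dog, with no overlap with the rods. *COX7A2L*, which helps to join complexes III and IV into supercomplexes, fell from 3.54 and 1.24 to 1.80 and 0.640 (-0.99 ± 0.24, adjusted p = 0.00485). Its level differed more between the dogs than between these classes.

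Of complex I, *NDUFA13*, *NDUFB9*, *NDUFA8* and *NDUFS6*, accessory subunits, and *NDUFS3*, a core subunit, rose in cones by 0.82 to 0.99 on the log2 scale. *NDUFA13* had 4.28 and 0.726 UMIs per 10000 in rods and 8.39 and 1.46 in cones, and *NDUFB9* had 1.98 and 3.01 in rods and 3.93 and 5.60 in cones. *NDUFA6*, an accessory subunit, fell from 3.40 and 5.77 to 2.35 and 2.80 (-0.77 ± 0.21, adjusted p = 0.0100). Of ATP synthase, *ATP5IF1*, the inhibitor of its reverse reaction, rose from 3.05 and 6.81 to 5.48 and 12.9 (0.90 ± 0.20, adjusted p = 0.00183). The catalytic subunit gene *ATP5F1B* rose from 7.25 and 9.88 to 13.8 and 15.4 (0.80 ± 0.20, adjusted p = 0.00651) and *ATP5MC1*, a gene of the c-ring, from 5.56 and 10.1 to 8.98 and 14.3 (0.61 ± 0.20, adjusted p = 0.0316). Of the mitochondrial members, *ND3* rose by 1.02 ± 0.23 and *ND4* by 0.82 ± 0.22.

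In Müller glia, most mitochondrial members were higher than in rods, whereas the nuclear members moved in both directions. All but 2 of the 13 mitochondrial members were higher than in rods and none was lower, whereas 9 of 51 nuclear members were higher and 14 lower. Over all genes 58.5% passed, 32.7% higher and 25.8% lower, so that the nuclear share in either direction was below that background. The share of nuclear members that were lower was close to that over all genes, and 24 of the 51 had a positive log2 fold change. The median log2 fold change was -0.21 over the nuclear and 0.91 over the mitochondrial members, and 0.04 over all genes tested. The TMM factors of Müller glia were low, at 0.736 and 0.646. With library size alone, chosen after the data were seen, the median over all genes moved to -0.52, 3 nuclear members were higher and 37 lower, and 4 mitochondrial members were higher and none lower. On that scale 66.7% of all genes passed, 24.9% higher and 41.8% lower. Immediate early stress genes were at 226 and 54.8 UMIs per 10000 in Müller glia, against 23.8 and 18.1 in rods, and their part in these results was not tested.

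The mitochondrial genes that rose in Müller glia were led by *ND1*, a core subunit of complex I, with 12.04 and 27.8 UMIs per 10000 in rods and 20.9 and 61.0 in Müller glia (1.56 ± 0.24, adjusted p = 1.35e-05). *ND2* rose by 1.20 ± 0.24, *CYTB* by 1.08 ± 0.22, *COX3* by 1.07 ± 0.23, *ATP6* by 0.99 ± 0.22, *ATP8* by 0.98 ± 0.22 and *ND4L* by 0.91 ± 0.21. *COX1* and *ND3* did not pass. Levels of mitochondrial genes are given per 10000 UMIs of all genes, and those of nuclear members per 10000 UMIs outside the mitochondrial genes.

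Of the nuclear members that were lower in Müller glia, *ATP5MC1* had 1.72 and 2.80 UMIs per 10000, against 5.56 and 10.1 in rods (-1.20 ± 0.20, adjusted p = 3.61e-05). The complex I genes *NDUFA6*, *NDUFS7*, *NDUFA9*, *NDUFB2* and *NDUFV3* fell by 1.17, 0.99, 0.86, 0.74 and 0.60 on the log2 scale. *NDUFS7* carries an iron-sulfur cluster close to the site where coenzyme Q is reduced. Of complex III, *UQCRC1*, a core subunit, fell from 1.63 and 1.52 to 0.482 and 0.514 (-1.09 ± 0.19, adjusted p = 6.78e-05), and *UQCR10*, a small subunit, fell by 0.62 on that scale. *ATP5F1D*, of the rotor stalk of ATP synthase, fell by 0.57. Of the members that rose, *COX7A1* had 1.54 and 2.68 in Müller glia (1.45 ± 0.19) and *NDUFB10*, an accessory subunit of complex I, had 2.54 and 3.36 against 1.67 and 2.40 in rods (1.12 ± 0.18). *COX4I2*, which rests on few UMIs, also passed as higher.

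In bipolar cells the difference from rods was carried by the mitochondrial members, of which 11 of 13 were higher and none lower. Of 51 nuclear members 7 were higher and 4 lower, and over all genes 34.2% passed, 18.6% higher and 15.6% lower, a larger share than among the nuclear members. The median log2 fold change was 0.96 over the mitochondrial, 0.01 over the nuclear members and -0.04 over all genes. *COX3* rose from 90.4 and 131 UMIs per 10000 in rods to 249 and 349 (1.35 ± 0.23, adjusted p = 9.29e-05) and *ATP6* from 139 and 160 to 384 and 414 (1.34 ± 0.22, adjusted p = 7.13e-05). *ND1*, *CYTB*, *ND2*, *COX2*, *ND4*, *ATP8* and *COX1* rose by 1.28, 1.23, 1.17, 1.02, 0.96, 0.91 and 0.89 on that scale. In cells with at most 10% mitochondrial UMIs, which left 88 and 22 bipolar cells, no mitochondrial member passed and 7 members passed in all. This limit selects cells on the same 13 genes that are tested. It left out 75.4% and 91.8% of the bipolar cells and 11.6% and 26.9% of the rods. The mitochondrial calls under it are therefore no separate test of these genes.

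Of the nuclear members in bipolar cells, *NDUFA6* had 2.12 and 3.64 UMIs per 10000 against 3.40 and 5.77 in rods (-0.90 ± 0.21, adjusted p = 0.00216). *NDUFB2* and *NDUFV3* fell by 0.67 and 0.68 on the log2 scale. *COX7A1* rose by 0.83 ± 0.20, and *ATP5IF1* rose from 3.05 and 6.81 to 5.69 and 12.6 (0.67 ± 0.20, adjusted p = 0.0108).

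Horizontal cells had the largest number of nuclear members that were higher than in rods, 29 of 51, with 1 lower. Over all genes 44.2% passed, 22.0% higher and 22.2% lower, a smaller share than among the nuclear members. Of 13 mitochondrial members 6 were higher and none lower, or 4 and none without the 2 cells of N350 above 50% mitochondrial UMIs. The median log2 fold change was 0.74 over the nuclear and 0.54 over the mitochondrial members, and -0.13 over all genes. The nuclear members that rose included 18 of 27 of complex I, 5 of 8 tested of complex IV, 2 of 3 of complex II and 3 of 8 of complex V. The class rested on 27 cells in N354.

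*COX7A1* had 3.03 and 6.45 UMIs per 10000 in horizontal cells (1.87 ± 0.20, adjusted p = 1.82e-07) and *NDUFB9* 6.94 and 9.97, against 1.98 and 3.01 in rods (1.65 ± 0.19, adjusted p = 5.91e-07). *COX4I1* had 18.1 and 28.8 (1.07 ± 0.20, adjusted p = 0.000204). *SDHC*, a membrane anchor of complex II, rose from 0.899 and 0.935 to 2.81 and 1.79 (1.28 ± 0.23) and *UQCRC2*, a core subunit of complex III, from 1.03 and 1.24 to 2.49 and 3.31 (1.20 ± 0.21). Each of these genes was higher in horizontal cells of both dogs. *NDUFA13*, *NDUFB10*, *NDUFA8*, *COX8A* and *NDUFB4* rose by 1.15, 1.11, 1.02, 1.01 and 0.99 on the log2 scale. *SDHB*, an iron-sulfur subunit of complex II, had 2.18 and 3.14 against 1.30 and 1.56 in rods (0.75 ± 0.19, adjusted p = 0.00328).

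In amacrine and ganglion cells, 15 of 51 nuclear members were higher than in rods and 2 lower, and 6 of 13 mitochondrial members were higher and none lower. Over all genes 53.2% passed, 29.8% higher and 23.5% lower, so that the share of nuclear members was below the background. The median log2 fold change was 0.32 over the nuclear and 0.50 over the mitochondrial members, and 0.05 over all genes. With library size alone, 27 nuclear members were higher and 2 lower, at a median of 0.22 over all genes and with 52.8% of all genes passing, 33.0% higher and 19.9% lower. *ND1* rose from 12.04 and 27.8 UMIs per 10000 to 26.5 and 88.5 (1.22 ± 0.24, adjusted p = 0.000239), *ND4* rose by 0.94, *CYTB* by 0.79 and *ND4L* by 0.75. Without cells above 50% mitochondrial UMIs, which left out 1 cell of this class, in N354, only *ND1* of the 13 mitochondrial members passed (54.8 per 10000 in N354, 0.85 ± 0.26, adjusted p = 0.0102). The mitochondrial median was then 0.09, the counts of nuclear members were 15 higher and 2 lower, and over all genes 53.1% passed, 29.7% higher and 23.5% lower. *NDUFB9*, *NDUFB10*, *NDUFS6*, *NDUFA13*, *ATP5IF1* and *COX4I1* rose by 1.15, 1.02, 0.98, 0.94, 0.84 and 0.75. *ATP5F1C*, the gene of the central rotor stalk of ATP synthase, had 5.47 and 5.78 against 7.23 and 8.26 in rods (-0.69 ± 0.20, adjusted p = 0.00581).

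**Figure D4:**
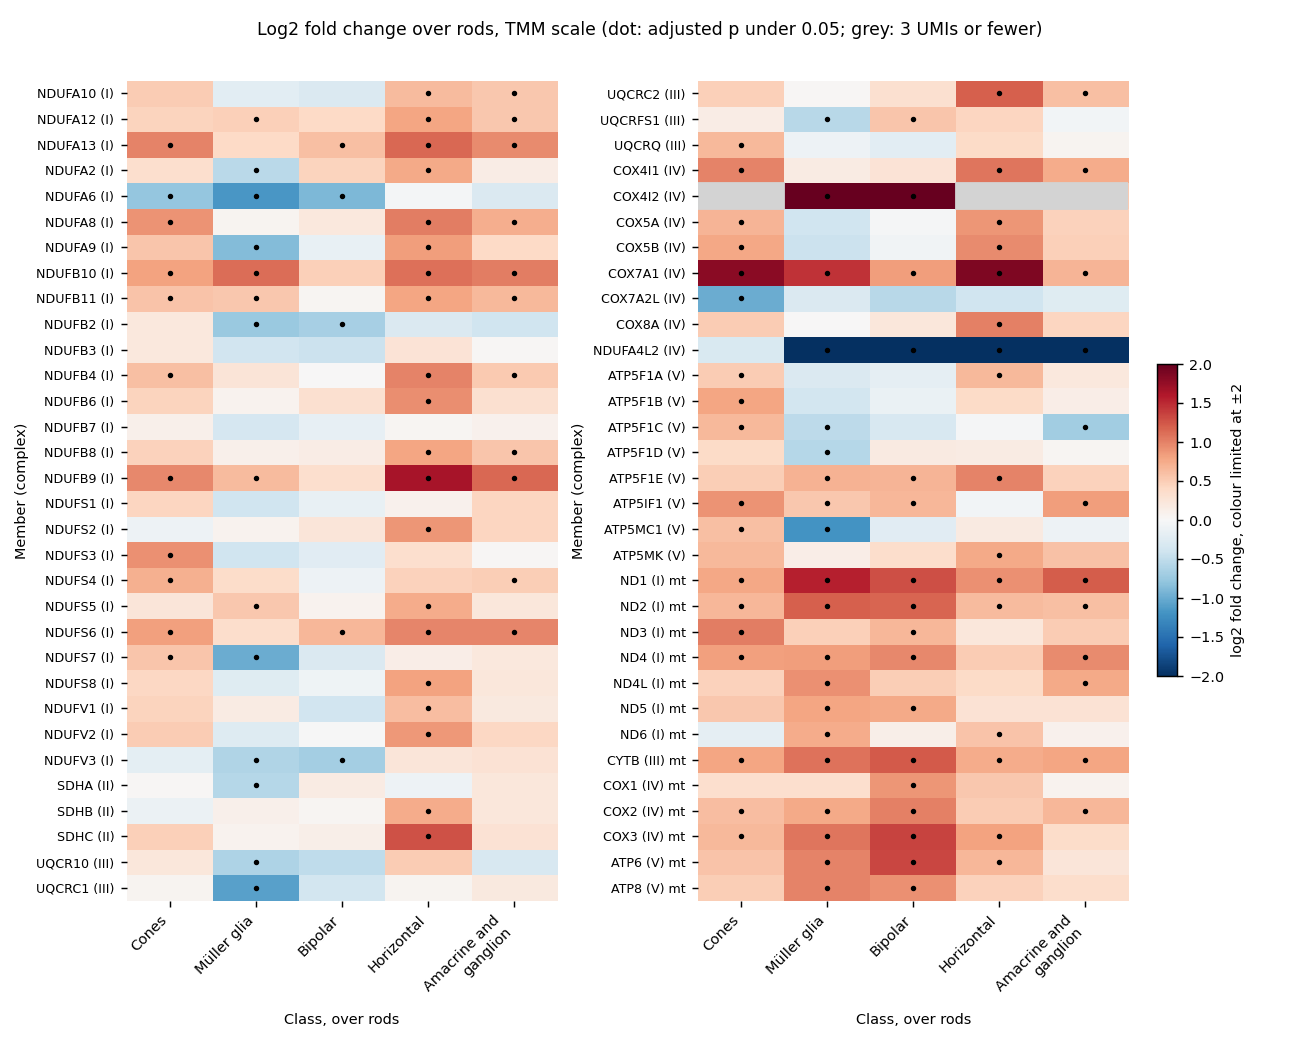
Log2 fold change over rods (TMM scale, colour limited at 2) for the 64 members tested, by complex, in 5 classes; mt marks mitochondrial genes, dots mark an adjusted p under 0.05 and grey marks 3 UMIs or fewer in the class. The mitochondrial members hold no dot on a lower value, and *NDUFA4L2* is low in 4 classes.

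*NDUFA4L2*, a paralogue of *NDUFA4* that is known as a target of hypoxia-inducible factor, was high in photoreceptors and low in the other 4 neural and glial classes found in both dogs. Rods had 3.40 UMIs per 10000 in N350 and 1.84 in N354, and cones 2.15 and 1.94. Müller glia had 0.0954 and 0.0494, bipolar cells 0.440 and 0.0369, horizontal cells 0.155 and 0.0542, and amacrine and ganglion cells 0.133 and 0.202. All photoreceptor values were thus above all values of these other classes. The values of these classes in N354 rested on few UMIs. Müller glia had 12, bipolar cells 2, horizontal cells 1, and amacrine and ganglion cells 5. The log2 fold change over rods was -4.56 ± 0.35 in Müller glia, -3.63 ± 0.38 in bipolar cells, -4.52 ± 0.45 in horizontal cells and -4.55 ± 0.42 in amacrine and ganglion cells. These 4 calls also held without the dog as a block, with adjusted p of 0.00888, 0.0321, 0.0145 and 0.0143. In cones the dogs lay on opposite sides of the rods.

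A UMI of *NDUFA4L2* was found in 31.7% of rods in N350 and 18.1% in N354, at a median depth of 1091 and 1065 UMIs. In Müller glia the share was 6.07% and 2.82%, although their median depth was 7532.5 and 6109 UMIs. In cones it was 52.4% and 35.7%, at a median depth of 4466 and 3239.5 UMIs. When each cell was thinned to 1000 UMIs, the expected share was 25.6% and 15.7% in rods, 18.4% and 16.1% in cones, and 1.12% and 0.372% in Müller glia. Both photoreceptor classes thus stood above Müller glia at either depth. The thinned share was 3.76% and 0.465% in bipolar cells, 2.72% and 0.332% in horizontal cells, and 2.07% and 2.71% in amacrine and ganglion cells. Free RNA was not measured, so none of these shares is read as its background. Cones had the larger share before thinning in N350 and rods after it, so no order of rods and cones is read from these shares. Thinning left out 1838 and 942 rods and 51 and 36 Müller glia. The 22 vascular cells of N350 had 1.88 UMIs per 10000, from 34 UMIs in 9 cells.

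*COX4I2*, the form of its subunit known from lung and from pericytes of vessels, was highest in vascular cells, followed by bipolar cells. The vascular cells of N350 had 6.69 UMIs per 10000, from 121 UMIs in 14 of 22 cells, of which 1 cell held 51. Bipolar cells had 0.738 in N350 and 0.536 in N354, from 57 and 29 UMIs. Rods had 6 UMIs in N350 and none in N354, where 3 UMIs would be 0.0125 per 10000. The level of bipolar cells was 64.2 times that of rods in N350 (27.8 to 182). In N354 it was 42.8 times a floor of 3 UMIs in rods, a value that leaves out counting error in the bipolar UMIs. The edgeR test over both dogs gave an adjusted p = 8.74e-08, and 0.0153 without the dog as a block. Müller glia had 38 and 6 UMIs, at 0.0625 and 0.0247 per 10000, and cones had none in either dog. *COX4I2* was also higher in Müller glia than in rods, 5.44 times (2.28 to 15.8) in N350. In N354 the 6 UMIs of Müller glia gave 1.97 times the same floor, again without their counting error. The edgeR test gave an adjusted p = 0.000383, and 0.0675 without the dog as a block.

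Within the bipolar class, *COX4I2* was found in 38 of 357 cells of N350 and 19 of 268 cells of N354. The share was 10.6% (exact binomial 95% interval 7.64 to 14.3) and 7.09% (4.32 to 10.8), against 0.135% and 0 in rods, and 6.10% and 3.52% at 1000 UMIs per cell. Vascular markers were near 0 in these cells, with no UMI in the 38 cells and 1 UMI in the 19 cells. Their level was 0 and 0.212 UMIs per 10000, against 0.0875 and 0.0607 in bipolar cells without *COX4I2*. The gate could leave out cells with 2 or more vascular markers, so these low values are in part set by it. The 10 bipolar markers together were at 66.9 and 54.4 UMIs per 10000 in cells with *COX4I2* and at 179.9 and 250.5 in cells without. Of these markers, 6 were lower in cells with *COX4I2* in both dogs, *PCP2* and *GNG13* among them, 2 were higher, 1 differed in opposite directions and 1 had no UMI. Among them, chosen for mention after their values were seen, *GRIK1*, a kainate receptor subunit of OFF bipolar cells, was at 13.2 and 12.7 UMIs per 10000 in cells with *COX4I2* and at 1.65 and 1.31 in cells without. *TRPM1*, the transduction channel of ON bipolar cells, was at 1.03 and 2.97 in cells with *COX4I2* and at 29.1 and 65.2 in cells without. *GRM6*, the glutamate receptor of ON bipolar cells, was still found in 10 of the 38 and 5 of the 19 cells with *COX4I2*. The cells with *COX4I2* had a median depth of 2355.5 and 2674 UMIs against 1993 and 2528. This division of cells was not tested, and the low level of the list as a whole leaves these cells less well marked as bipolar than the rest of the class.

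**Figure D5:**
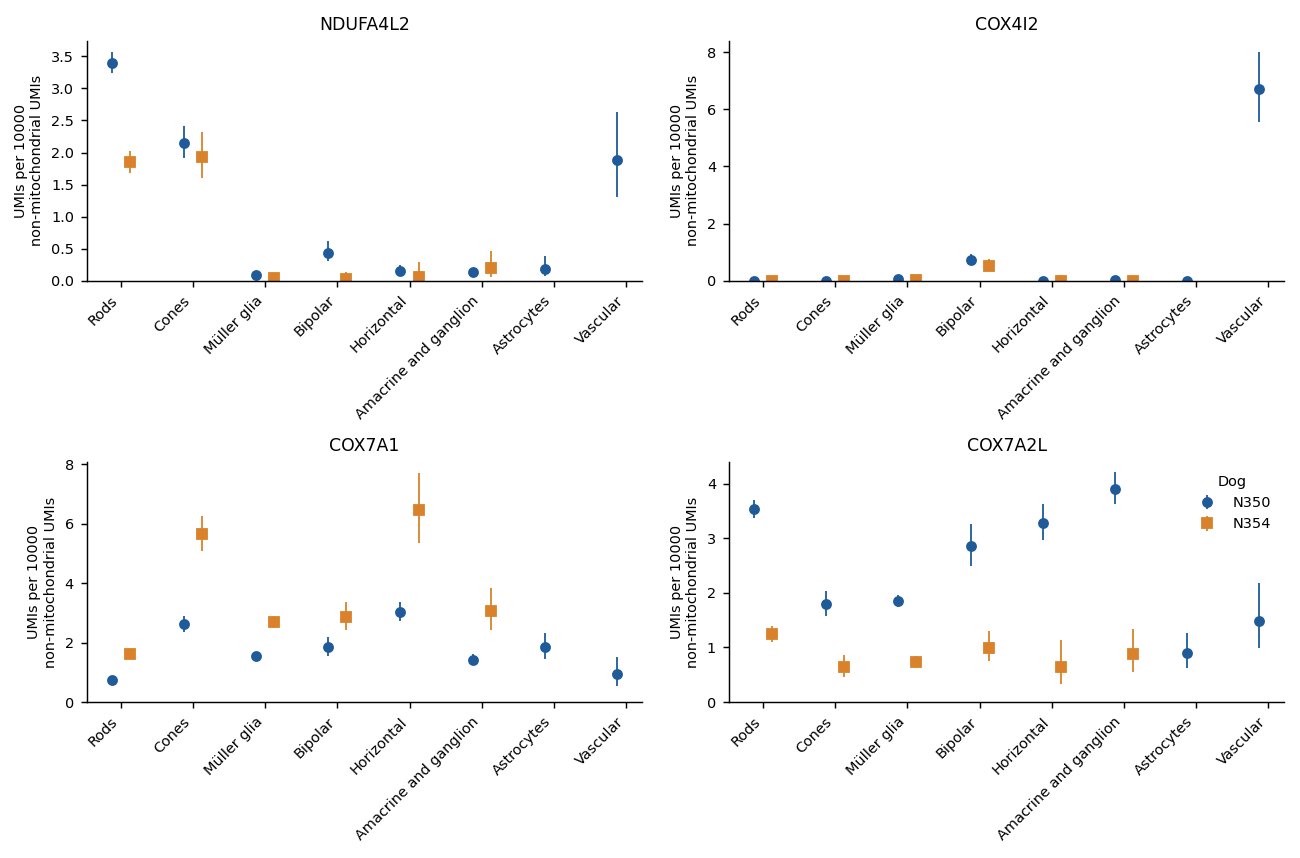
Level of *NDUFA4L2*, *COX4I2*, *COX7A1* and *COX7A2L* (UMIs per 10000 UMIs outside the mitochondrial genes) by class, with exact Poisson 95% intervals. Circles are N350 and squares N354; astrocytes and vascular cells are shown for N350 alone. *NDUFA4L2* is high in rods and cones, and *COX4I2* in the vascular cells, at 6.69.

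*COX7A1* was found in 8.10% and 15.6% of rods, in 58.6% and 73.0% of cones and in 69.2% and 81.5% of horizontal cells. At 1000 UMIs per cell these shares were 6.41% and 12.7%, 21.4% and 36.8%, and 25.5% and 45.3%. The order of the 3 classes was the same at equal depth. Each class held UMIs of this gene in at least 8.10% of its cells, and no class that lacks it was at hand to give a background of free RNA, so the shares are not read as shares of expressing cells.

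The dogs differed in the make-up of the mitochondrial RNA. In rods, *ND4* held 11.0% of the mitochondrial UMIs in N350 and 5.79% in N354, *ND3* held 0.258% and 1.36%, and *ATP8* held 0.116% and 0.417%. *ATP6* held 24.1% and 20.7%, *COX1* 18.1% and 23.5%, *COX2* 19.1% and 19.2% and *COX3* 15.7% and 16.9%. *CYTB* held 6.95% and 4.22%, *ND1* 2.09% and 3.59%, *ND2* 1.63% and 2.79%, *ND4L* 0.495% and 0.771%, *ND5* 0.413% and 0.688% and *ND6*, the gene on the other strand, 0.0757% and 0.154%. The larger of these shares was thus not in the same dog for all genes. Nuclear members also differed between the dogs, as *ATP5MK*, a small subunit of ATP synthase, had 1573 UMIs in rods of N350 and 1 in rods of N354, and *COX8A* had 9.86 and 2.47 UMIs per 10000. Dog, library and annotation cannot be told apart in these values either.

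Genes that serve the chain and are not among the members were read from 4 lists, beside a list of stress genes. Over all genes 23.9%, 58.5%, 34.2%, 44.2% and 53.2% passed in cones, Müller glia, bipolar, horizontal, and amacrine and ganglion cells. Of 43 assembly factors tested, 5 were higher and none lower in cones, 6 higher and 13 lower in Müller glia, 3 and 7 in bipolar cells, 12 and 5 in horizontal cells, and 7 and 9 in amacrine and ganglion cells. These shares were below that over all genes in each of the 5 comparisons. *SDHAF4*, an assembly factor of complex II, rose from 0.538 and 0.710 UMIs per 10000 in rods to 1.55 and 2.26 in cones (1.60 ± 0.20) and to 2.20 and 3.41 in horizontal cells (2.02 ± 0.20). *TTC19*, an assembly factor of complex III, rose from 0.358 and 0.547 to 1.21 and 1.75 in Müller glia (2.29 ± 0.21) and to 1.60 and 3.15 in amacrine and ganglion cells (2.08 ± 0.21). *COX10*, which makes the haem of complex IV, fell by 2.35 on the log2 scale in Müller glia and by 1.72 in bipolar cells.

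Of 13 genes of cytochrome c, coenzyme Q and cytochrome c1, 1 was higher in cones, and 3 were higher and 3 lower in Müller glia. The counts were 1 and 1 in bipolar cells and 3 and 1 in horizontal cells, and none passed in amacrine and ganglion cells. These shares were also below that over all genes in each comparison. Cytochrome c1 is a subunit of complex III whose symbol the naming rule does not match. *CYCS*, cytochrome c itself, had 4.94 and 4.89 UMIs per 10000 in rods, 7.41 and 7.63 in cones (0.63 ± 0.23, adjusted p = 0.0490) and 8.53 and 10.3 in horizontal cells (0.80 ± 0.23, adjusted p = 0.00729). Of 24 regulators of mitochondrial DNA expression and biogenesis, 1 was higher and 1 lower in cones, none higher and 8 lower in Müller glia, none and 5 in bipolar cells, 1 and 6 in horizontal cells, and 2 and 7 in amacrine and ganglion cells. In each comparison the share was below that over all genes. *PPARGC1A*, a coactivator of mitochondrial biogenesis, rose from 0.0612 and 0.0250 in rods to 0.475 and 0.304 in cones (3.12 ± 0.46, adjusted p = 3.98e-05). Its paralogue *PPARGC1B* had 0.641 and 0.417 in rods and 0.0181 and 0.0206 in Müller glia (-4.27 ± 0.35, adjusted p = 1.81e-09). *ESRRG*, a nuclear receptor that acts with these coactivators, fell from 0.350 and 0.843 in rods to 0.0259 and 0.0924 in bipolar cells (-3.64 ± 0.59). The low values of *ESRRG* in bipolar cells, *PPARGC1B* in Müller glia and *PPARGC1A* in rods of N354 rest on few UMIs.

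Of 6 carriers and porins tested, 2 were higher and 1 lower in cones, 1 and 2 in Müller glia, 1 and 2 in bipolar cells, 3 and 1 in horizontal cells, and 3 and 2 in amacrine and ganglion cells. The share was below that over all genes in Müller glia and above it in the other 4 comparisons. With only 6 genes tested, single genes can set these directions, so no difference of the list from all genes is read. *VDAC1*, the main porin of the outer membrane, had 3.63 and 3.29 UMIs per 10000 in rods, 11.4 and 8.90 in cones (1.55 ± 0.20) and 17.0 and 15.8 in bipolar cells (2.02 ± 0.20). The adenine nucleotide carriers *SLC25A4* and *SLC25A5* moved in opposite directions in Müller glia. There, *SLC25A4* had 8.03 and 8.42 against 2.40 and 3.16 in rods (2.15 ± 0.21), and *SLC25A5* had 1.75 and 1.58 against 6.62 and 7.43 (-1.51 ± 0.20). These 2 genes also passed in opposite directions in horizontal cells (1.75 ± 0.21 and -1.66 ± 0.22). The same held in amacrine and ganglion cells (1.25 ± 0.21 and -1.28 ± 0.21). Of 8 immediate early stress genes tested, 6 were higher in Müller glia and none lower, whereas in cones 1 was higher and 2 lower. The counts were none and 3 in bipolar cells, none and 5 in horizontal cells, and 3 and 2 in amacrine and ganglion cells. In each of the 5 comparisons the share of these genes that passed was above that over all genes. With only 8 genes tested, single genes weigh heavily in these shares, so no excess of stress genes is read from them.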

How the data were processed

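Single-cell RNA-seq libraries of neuroretina from 2 dogs were analysed. The authors aligned and counted reads with Cell Ranger (version 6.0.2 per the file headers; the study names canFam6), and deposited unnormalized UMI counts for each gene in each cell. The deposited counts listed 34981 genes in N350 and 19947 in N354, and only shared names were tested. No other sample was in the tables.

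Cells with at least 200 genes were kept, without the limit of 5% mitochondrial content that the paper set. Scrublet (scanpy 1.11.5) scored doublets; by default it called 0% and 0.0912% of cells, and instead the 4% with the top scores (356 and 175 cells) were removed. A cell was given a class when at least 3 markers of a list were found, at a level at least 2 times that of the whole dog and 2 times that of the next list with 2 or more markers. The lists held 10 markers of rods and 11 of amacrine and ganglion cells. Markers chosen but not used included *NR2E3* and *POU4F1*. Clusters, one of the alternatives, were made without members. The gate was settled after its scores had been seen.

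Levels are UMIs per 10000, with exact Poisson or conditional 95% intervals (scipy 1.17.1), which cover counting error only. UMIs were summed per dog and class and tested in edgeR 4.0.16 (R 4.3.3, glmQLFit, glmQLFTest, TMM, Benjamini-Hochberg), all 6 classes in 1 fit. Genes were tested if found in at least 3 cells of each dog and with at least 10 UMIs over the sums. The dog was a block because its 6 sums share 1 animal and library. Over 11325 genes, these sums deviated together from the means of the classes (correlation 0.596 to 0.800, median 0.689). The comparisons of horizontal and of amacrine and ganglion cells were read from the same fit, in addition to those planned. Library size alone and a limit of 50% mitochondrial UMIs per cell were alternatives chosen after seeing the data; DESeq2 1.42.0 was another. The script was tested on simulated data.

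The members and lists were chosen with earlier results of these data known. Genes named are the mitochondrial members, isoforms and regulators, the nuclear member of each complex with the highest mean in rods, and up to 10 members in each direction per comparison with the largest change that passed and moved alike in both dogs, with up to 3 genes of each other list; further members are named only where a value in the text rests on them.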

Additional observations from a re-analysis of the deposited data

How the results depend on the processing

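Alternatives were run for the class sums and for the single members, and each class is compared with rods. The log2 ratio of the nuclear level was 0.52 in cones; it was 0.47 in cells with at most 10% mitochondrial UMIs, 0.59 with classes from clusters and 0.47 per 10000 UMIs of all genes. In Müller glia it was -0.70, and -0.60 with clusters. In bipolar cells it was 0.24, and 0.10 per 10000 UMIs of all genes. The log2 ratio of the mitochondrial share in bipolar cells was 1.22, and 0.61 with the 10% limit. With 1 dog at a time the nuclear ratio was 0.49 to 0.55 in cones, -0.72 to -0.67 in Müller glia and 0.17 to 0.32 in bipolar cells, and the mitochondrial ratio 0.44 to 0.63, 0.14 to 0.39 and 1.17 to 1.28; 1 dog leaves no spread to test, so counts of members were not computed.

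Members called numbered 29 in cones, 34 in Müller glia and 22 in bipolar cells. Without the replicate block they numbered 0, 3 and 3. The 10% limit gave 12 in cones and 7 in bipolar cells, clusters gave 14, 22 and 12, DESeq2 size factors gave 46 in cones, and library sizes without the 13 mitochondrial genes, which were then not tested, gave 14, 20 and 8. In cones, 241 genes were higher and 68 lower without the block, against 1560 and 1147 with it. The share of all genes that passed in cones, Müller glia and bipolar cells was 23.9%, 58.5% and 34.2%; it was 9.65%, 42.4% and 20.4% with clusters, 21.8% in cones and 26.9% in bipolar cells under the 10% limit, and 23.8%, 58.5% and 34.1% with library sizes without mitochondrial genes, so that calls over all genes also fell with clusters and in bipolar cells under the limit. Without cells above 50% mitochondrial UMIs, 9 of the 95 named results lost their call, 2 in cones, 2 in horizontal cells and 5 in amacrine and ganglion cells, all of them mitochondrial genes. Of 95 named results, 84 lost their call without the block and none reversed. *ATP5IF1* in Müller glia turned to -0.032 with library size alone, and in bipolar cells under the 10% limit *ATP8*, *COX1*, *ND3* and *ND5* turned to -0.18, -0.10, -0.36 and -0.40. The 10% limit removes cells by their UMIs on the mitochondrial members themselves, so values of these members under it are not independent of the limit. The causes of these turns were not tested.

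The ratio of mitochondrial to nuclear UMIs under the 10% limit was 4.15 and 3.41 in bipolar cells, 6.26 and 7.06 in Müller glia, and 3.03 and 2.98 in rods. With less than 5% on names that start with MT-, 716 rods of N354 remained and no other class of N354 reached 20 cells, while no gated cell of these classes was lost in N350, where 1 name starts that way, so no comparison is given. The 10% limit left too few horizontal cells in N354, and clusters gave no amacrine and ganglion class there.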
